A study of Bos taurus with 47 samples.

Results

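Bovine morulae made by somatic cell nuclear transfer (scNT) were compared with bovine blastocysts made by in vitro fertilization (IVF), to see which genes of the scNT morula already stood at the level of the blastocyst and which did not. The comparison used 7 of the 47 mRNA libraries of the series, 3 of scNT morulae (replicates 2, 3 and 4) and 4 of IVF blastocysts (replicates 1 to 4). A gene was included when it had a value of 10 or more normalized reads in at least 3 of the 7 libraries, which 13395 of 20526 genes (65.3%) met. The other groups of the series, from oocytes and fibroblasts to cells derived from blastocysts, served to sort the genes and were not part of the comparison itself.

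Per the labels, each library came from a pool of 20 whole embryos, collected on day 6 after scNT for morulae and on day 8 after IVF for blastocysts. Both kinds of embryo started from oocytes matured in culture, and IVF zygotes were cultured in synthetic oviductal fluid with fetal bovine serum over a layer of cumulus cells. The IVF embryos were sired with frozen semen from a Holstein bull. The scNT embryos had no sire. Each received the nucleus of a serum-starved fibroblast from an ear biopsy culture of a Brahma Spanish bull cross, placed by electrofusion in an oocyte whose own chromosomes had been removed. The comparison therefore joins at least 3 differences, in stage, in method and in parentage, which cannot be told apart from these 7 libraries alone. How many pools were made per stage is unclear, since the account of RNA isolation gives 3 and that of the design 4, so it is not certain that the 4 IVF blastocyst libraries are 4 separate pools. They also do not say whether the pools of a group came from separate collections or culture days. The p-values therefore reflect variation from pool to pool only, and part of it may be technical.

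A morula is the compacted ball of cells that precedes the blastocyst. In the blastocyst an outer epithelium, the trophectoderm, pumps fluid into a cavity, and an inner cell mass is set aside from it. Before that, the embryo runs down the transcripts stored in the oocyte and replaces them with its own, a handover that in cattle is centred on the 8-cell stage and the divisions after it. After nuclear transfer the same handover has to be made by a nucleus that came from a differentiated cell.

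Genes were identified by Ensembl numbers, and the file does not pair them with names. In the RefSeq gene table at hand 0 of the 20526 numbers could be found, so markers of the trophectoderm, the inner cell mass, cumulus cells or other cell types were not looked up, and the labelled stages were not checked against them. Genes are instead grouped below by their behaviour in libraries outside the comparison, and at most 2 identifiers in each direction are named.

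The 7 libraries held 4608100 to 8168020 recovered reads, with 5663196 to 8168020 in scNT morulae and 4608100 to 7062388 in IVF blastocysts. The 10 most abundant genes of IVF blastocysts took 18.4% to 25.4% of all normalized reads in those libraries and 9.98% to 15.5% in scNT morulae. One scNT morula library, replicate 4, stood apart. Its mean correlation with the other scNT morulae over the genes tested was 0.916 on the log2 scale, against 0.945 and 0.941 for replicates 2 and 3, and within IVF blastocysts the corresponding means were 0.961 to 0.968. Results that lean on this library are given with and without it.

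The scNT morulae differed from IVF blastocysts in 5135 of the 13395 genes, or 38.3% (limma on log2(value + 1), two-sided, Benjamini-Hochberg adjusted p under 0.05, n = 3 and 4). Of these, 2370 genes (17.7%) were lower in scNT morulae, with a median log2 difference of -1.25, and 2765 (20.6%) were higher, with a median of 1.13. The estimate reached 2-fold or more for 1517 of the lower and 1604 of the higher genes. The libraries of the groups did not overlap in 6083 genes (45.4%), 3270 of them higher and 2813 lower in scNT morulae. In pools of whole embryos, fewer cells of a type and less RNA per cell cannot be told apart.

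A gene that missed the threshold was not taken to be at blastocyst level. For that, 2 one-sided tests asked whether the difference was smaller than 2-fold in either direction (limma, larger p of the pair, Benjamini-Hochberg adjusted p under 0.05). This was met by 4710 genes, 35.2% of those tested, of which 482 also differed by a smaller amount. The remaining 4032 genes (30.1%) were shown neither to differ nor to stand within 2-fold.

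**Figure D1:**
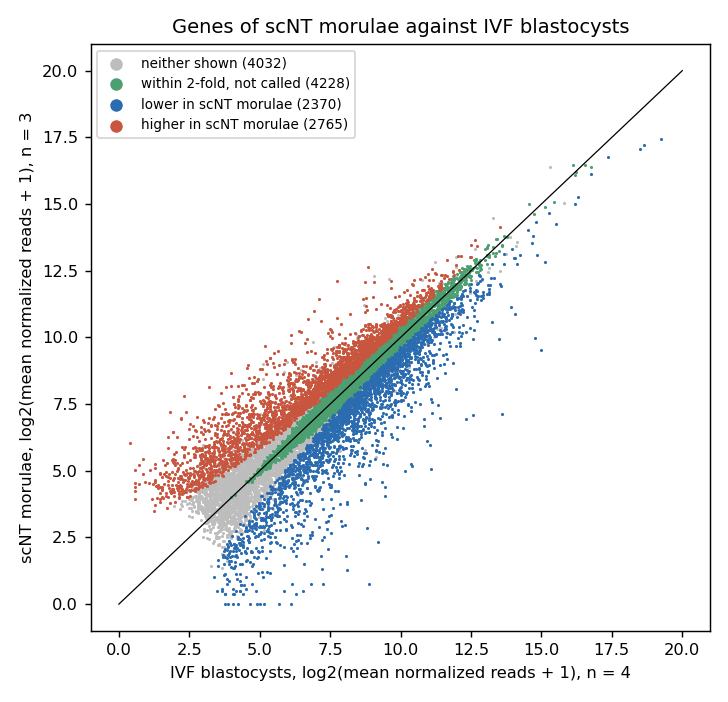
Mean level of each of the 13395 genes in IVF blastocysts (horizontal axis) and scNT morulae (vertical axis), both as log2 of the mean normalized reads plus 1, with the line of equal levels. The 2370 lower and 2765 higher genes lie on either side of the 4228 that were within 2-fold and not called, and the 4032 genes shown to be neither gather at low levels.

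How much could be resolved followed the level of the gene. Among the 2895 genes with a mean log2 level under 5 over the 7 libraries, 32.2% differed and 24 genes were shown to be within 2-fold, with a median standard error of 0.54 on the log2 scale. Among the 3192 genes at 9 or more, 41.4% differed and 63.9% were within 2-fold, with a median standard error of 0.17. The share placed at blastocyst level thus depended far more on the level than the share that differed. Of the genes tested, 268 had 10 reads or more in no scNT morula library, and 203 of these were called lower. Another 226 had 10 or more in no IVF blastocyst library, and 204 were called higher. Such genes could enter only through the group in which they were high. At the edge of the rule, the 33 genes just inside had a third-highest value of 10 among the 7 libraries, and the 83 just outside had 9.4.

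The split between higher and lower genes depended on the scaling of the libraries. With the deposited values the median log2 difference of all genes was 0.07. When every library was given the same total, the median moved to 0.32 and the calls became 4313 higher and 1597 lower, so that 73.0% of the called genes were higher in place of 53.8%. With median-of-ratios scaling over the 7 libraries the median was 0.001, and 48.4% of the called genes were higher. Without scNT morula replicate 2 the number of higher genes was 1742 of 13057 tested, and without replicate 4 it was 2447. With a morula library left out, genes under 10 in every IVF blastocyst library could no longer pass the filter, which lowers the number of higher genes. The lower genes numbered 2344 without replicate 4, and of the 13033 genes then tested 36.8% differed, 18.8% higher and 18% lower, and 41.6% were within 2-fold.

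The same test in neighbouring comparisons, which share libraries with this one, gives a rough scale for these shares. They also depend on the number of libraries and on the spread within groups. Neither was shown for 30.1% of genes here and for 14.2% between IVF morulae and IVF blastocysts (n = 4 each). Between IVF morulae and IVF blastocysts 59.9% of genes differed and 37.7% were within 2-fold. Between scNT morulae and scNT blastocysts 47.7% differed and 34% were within 2-fold, and between scNT and IVF morulae 18.7% differed and 45.4% were within 2-fold. The blastocysts of the methods differed in 5.95% of genes, with 2.53% higher and 3.42% lower after scNT, and 73.3% were within 2-fold.

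The 2 genes named as lower were near 0 in scNT morulae and clearly present in IVF blastocysts. ENSBTAG00000033096 had values of 0.9, 1.2 and 0 in scNT morula replicates 2 to 4 and 673.3, 561.3, 383.3 and 275.9 in IVF blastocyst replicates 1 to 4. The groups did not overlap, and the lowest blastocyst library was far above the highest morula library. The log2 difference was -8.12 ± 0.41 (SE; limma, Benjamini-Hochberg adjusted p = 7.56e-06). It rested on 2 reads in scNT morulae against 1086 in IVF blastocysts, a ratio of 584 with a 95% exact counting interval of 161 to 4832. ENSBTAG00000016973 had 0, 6.2 and 6 in the scNT morulae and 926.3, 555.1, 543.2 and 311.5 in the IVF blastocysts, again with no overlap. Its log2 difference was -7.20 ± 0.72 (SE; limma adjusted p = 3.81e-04).

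In the other groups both genes had means under 10 before the blastocyst and were high after it. ENSBTAG00000033096 had a mean of 4.08 ± 6.58 normalized reads in IVF morulae (SD, n = 4), 496 ± 135 in scNT blastocysts and 20210 ± 7440 in cells derived from IVF blastocysts. ENSBTAG00000016973 had 6.80 ± 6.21 in IVF morulae, 985 ± 326 in scNT blastocysts and 2560 ± 249 in cells derived from IVF blastocysts. In fibroblasts their means were 0 and 0.375. For these genes the scNT morula stood where the IVF morula stood.

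The 2 genes named as higher followed separate courses. ENSBTAG00000039787 had 60.2, 88.4 and 43.8 normalized reads in scNT morula replicates 2 to 4 and 0, 0, 1.3 and 0 in the IVF blastocyst libraries. The log2 difference was 5.67 ± 0.60 (SE; limma adjusted p = 1.89e-04), from 164 reads against 1, a ratio of 152 with a 95% exact counting interval of 27.0 to 6054. It was listed at 0 in every library of fibroblasts, oocytes and 2-cell embryos of both methods. It had a mean of 0.425 ± 0.85 in IVF morulae, 145 ± 18.7 in scNT blastocysts, 158 ± 29.2 in cells derived from scNT blastocysts and 6.40 ± 11.5 in those from IVF blastocysts (SD, n = 4 each). This gene was therefore low in IVF embryos of every stage and present in scNT embryos from the morula on.

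ENSBTAG00000047612 had 195.7, 408.6 and 69.5 in the scNT morulae and 5.6, 2, 6.3 and 1.9 in the IVF blastocysts. All 3 morula values lay above all 4 blastocyst values, and the log2 difference was 5.30 ± 0.62 (SE; limma adjusted p = 2.90e-04). Its highest mean was in IVF 8-cell embryos, at 1331 ± 812 (SD, n = 4), followed by scNT morulae at 225 ± 171, scNT 8-cell embryos at 208 ± 125 and IVF morulae at 179 ± 128. The last 3 of these overlapped. In scNT blastocysts it had 2.15 ± 1.93. It was thus near 0 in the blastocysts of both methods.

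The 2 most abundant genes that were within 2-fold and not called differed in how close they came to blastocyst level. ENSBTAG00000043584 had 90615 ± 13170 normalized reads in scNT morulae (SD, n = 3) and 96340 ± 11426 in IVF blastocysts (SD, n = 4), with a log2 difference of -0.09 and a 95% interval of -0.44 to 0.26. ENSBTAG00000043577 had 85049 ± 13811 and 111140 ± 4297, with -0.40 and an interval of -0.72 to -0.08. Its scNT morula values, 72501.6 to 99847.6, all lay below its lowest blastocyst value of 105906.6. The adjusted p for a difference was 0.0506 (limma, Benjamini-Hochberg), just above the threshold. The gene was called lower under 4 alternative settings, and over all of them this p ran from 0.0145 (DESeq2) to 0.414 (equal library totals). In oocytes their means were 9319 and 8604 normalized reads, and in IVF morulae 73914 and 67364, so both genes were already far above the oocyte level in the morulae of either method.

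To ask about stage without using any of the 7 libraries, step genes were chosen between IVF morulae and scNT blastocysts, at a change of at least 4-fold and a limma adjusted p under 0.05. This gave 733 rising and 1667 falling genes, of which 705 and 1394 were tested here. The choice mixes stage with method, since it runs from IVF to scNT embryos.

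Most rising step genes had not reached the blastocyst. Of the 705, 548 (77.7%) were lower in scNT morulae than in IVF blastocysts, against 17.7% of all genes, and the median log2 difference was -2.05. Within this group 9 (1.28%) were shown to be within 2-fold, against 35.2% of all genes, and 25 (3.55%) were higher, against 20.6%. For 123 (17.4%) neither was shown. Without scNT morula replicate 4 the genes within 2-fold numbered 24 and those lower 550, and without replicate 2 those within 2-fold numbered 5. The mean log2 level of the 733 genes was 5.44, 5.83 and 4.78 in scNT morula replicates 2 to 4 and 7.76, 7.44, 7.39 and 7.23 in IVF blastocyst replicates 1 to 4. Every scNT morula library thus lay below every blastocyst library, and replicate 4 lay lowest. Of the tested rising genes, 95 had 10 reads or more in no scNT morula library.

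Falling step genes that could be tested were mostly still above the blastocyst. Of the 1394 tested, 939 (67.4%) were higher in scNT morulae, against 20.6% of all genes. The rest of the 1667 had 10 or more in fewer than 3 of the 7 libraries. Falling genes already low in both groups are thus not part of this share, and the same holds for the oocyte groups below. The median log2 difference of the falling genes was 1.58, and that of all genes 0.07. Within 2-fold were 30 (2.15%, against 35.2%), 14 were lower (1%, against 17.7%), and for 413 (29.6%) neither was shown. The mean log2 level of the 1667 genes was 6.11, 5.97 and 5.39 in scNT morula replicates 2 to 4 and 3.95 to 4.51 in the IVF blastocysts, with no overlap. Without scNT morula replicate 2 the number called higher was 596. Without replicate 4 it was 890 of 1257 tested (70.8%, against 18.8% of all genes). In both settings falling genes under 10 in every IVF blastocyst library were no longer tested. The number within 2-fold was 13 without IVF blastocyst replicate 2 and 16 without IVF blastocyst replicate 3 or scNT morula replicate 2 or 3. Of the tested falling genes, 126 had 10 reads or more in no IVF blastocyst library.

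**Figure D2:**
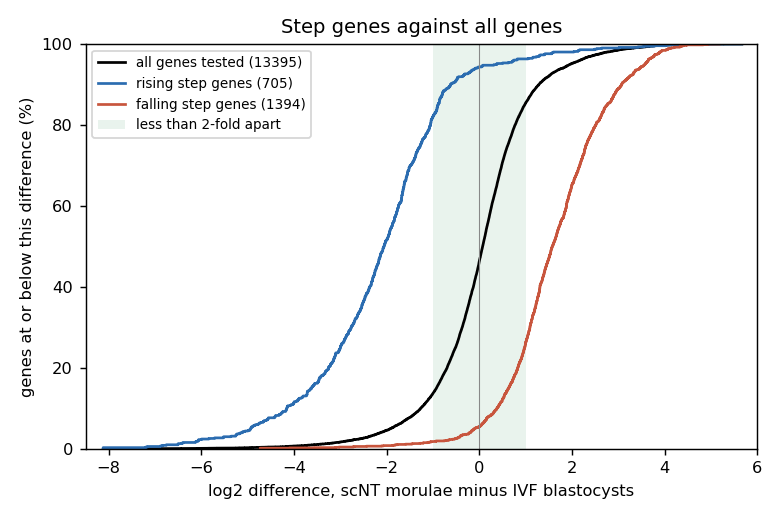
Share of genes (vertical axis, %) whose log2 difference between scNT morulae and IVF blastocysts was at or below the value on the horizontal axis, for all 13395 genes tested, 705 rising and 1394 falling step genes. The rising genes are shifted to a median of -2.05 and the falling genes to 1.58. The upper quartile of the rising genes, -1.27, lies outside the shaded band of less than 2-fold. The lower quartile of the falling genes, 0.98, lies just inside it.

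Most called genes also differed, in the opposite direction, in a comparison of the other stage and method pairing. The difference between scNT blastocysts and IVF morulae, which shares no library with the one studied here, was available for 12866 of the genes, and the log2 differences of both comparisons had a Pearson r of -0.758 across these genes, given as a description, since genes are not replicates and all libraries were normalized together. Of the genes lower in scNT morulae, 81.5% were called higher in scNT blastocysts than in IVF morulae, where 33.1% of all genes were, and 3.04% were called lower. Of the genes higher in scNT morulae, 78.7% were called lower in scNT blastocysts than in IVF morulae, where 33.4% of all genes were, and 3.23% were called higher. Seen from the other list, the shared genes were 44.1% of those that rose and 49.5% of those that fell. The genes within 2-fold and not called were not confined to genes without a stage difference. Of these 4228 genes, 59.2% differed between scNT blastocysts and IVF morulae, against 66.4% of all genes.

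A few step genes ran against the stage. The 25 rising genes that were higher in scNT morulae had a median over genes of 76.4 normalized reads in scNT morulae and 29.7 in IVF blastocysts. In groups that took no part in their choice the medians were 52.5 in cells derived from scNT blastocysts and 11.6 in those from IVF blastocysts. ENSBTAG00000039787 was among them. The 14 falling genes that were lower in scNT morulae had medians of 11 in scNT morulae and 84.6 in IVF blastocysts, and of 1.60 and 19.7 in cells derived from scNT and IVF blastocysts. In both small sets the scNT and IVF derived cells thus differed in the same direction as the embryos compared, a difference that was not tested.

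To set scNT morulae beside IVF morulae, step genes were also chosen from IVF 8-cell embryos to scNT blastocysts, which leaves out every morula library. There were 2069 rising and 2800 falling genes by this choice. It too runs from IVF to scNT embryos and so mixes stage with method. Between scNT and IVF blastocysts, 9.52% of the tested rising genes were higher after scNT and 1.59% lower, against 2.53% and 3.42% of all genes. Of the tested falling genes, 0.231% were higher and 9.59% lower. The choice therefore favours genes that differ by method in the direction of the step. The rising genes had mean log2 levels of 7.05, 7.33 and 7.02 in scNT morula replicates 2 to 4. In the 4 IVF morula libraries they ran from 6.61 to 6.88, in IVF blastocysts from 8.05 to 8.15 and in scNT blastocysts with a mean of 8.37 ± 0.09 (SD, n = 4). Every scNT morula library lay above every IVF morula library and below every blastocyst library. The falling genes had 6.11, 6.02 and 5.45 in scNT morula replicates 2 to 4, against 6.53 to 6.94 in IVF morulae and 4.43 to 4.85 in IVF blastocysts, again with no overlap on either side.

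**Figure D3:**
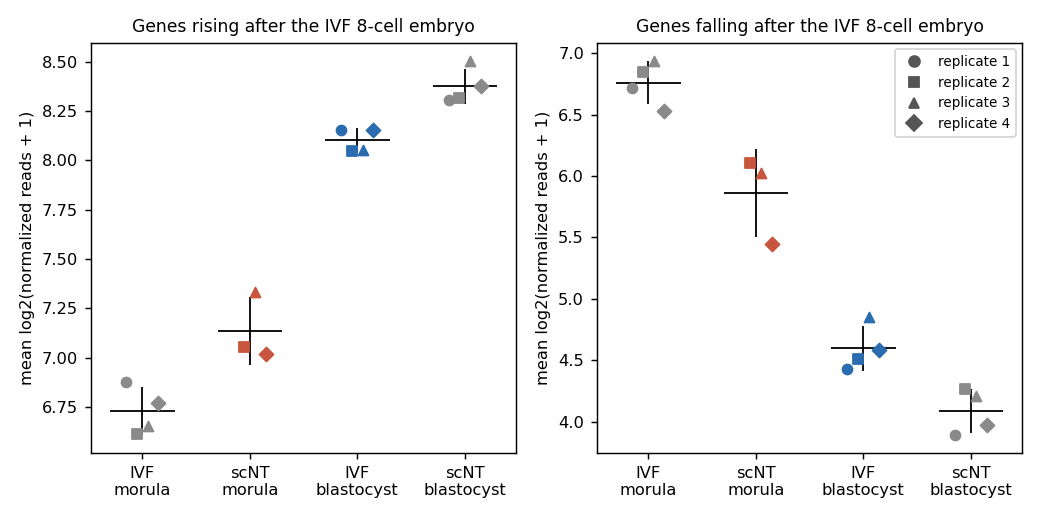
Mean log2(normalized reads + 1) of 2069 genes that rose (left) and 2800 that fell (right) between IVF 8-cell embryos and scNT blastocysts, for each morula and blastocyst library, with group means and SD as lines. The scNT morulae lie between IVF morulae and IVF blastocysts in both panels, and replicate 4 is the lowest scNT morula library in both.

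Expressed as the distance between the mean of the IVF morulae and the mean of the IVF blastocysts, scNT morulae had covered 29.6% for rising genes and 41.6% for falling genes. The order of these shares rested on replicate 4. Without it they were 33.9% and 32%, without replicate 2 they were 32.6% and 47.4%, and without replicate 3 they were 22.4% and 45.3%. For genes high in oocytes the share was 49.6% with all libraries and 37.1% without replicate 4.

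Counted gene by gene, 1117, 1351 and 1142 of the 2069 rising genes stood no more than 2-fold below the IVF blastocyst mean in scNT morula replicates 2, 3 and 4 (54.0%, 65.3% and 55.2%). In IVF morula libraries the range was 34.8% to 48.3%, and in scNT blastocysts 92.6% to 98.6%. Of the 2800 falling genes, 39.1%, 42.7% and 59.2% stood no more than 2-fold above the IVF blastocyst mean in the same scNT morula libraries, against 11.9% to 24.9% in IVF morulae and 96.0% to 98.5% in scNT blastocysts. On both counts each scNT morula library had a larger share than each IVF morula library, for genes whose choice used scNT blastocysts. Replicate 4 led for falling genes and replicate 3 for rising ones. By group means, 61.4% of the rising genes and 79.4% of the falling genes lay between the IVF morula and the IVF blastocyst. Past the blastocyst lay 19.3% and 9.25%, and short of the IVF morula lay 19.3% and 11.4%.

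The same genes gave these calls in comparisons that share libraries with each other and are set side by side for that reason. Against IVF blastocysts, 919 of 2043 tested rising genes were lower in scNT morulae (45.0%, against 17.7% of all genes), and 1583 of 2009 in IVF morulae (78.8%, against 29.6%). Falling genes were higher in 1283 of 2247 for scNT morulae (57.1%, against 20.6%) and in 2234 of 2481 for IVF morulae (90%, against 30.3%). These shares are not over the same genes, since a gene low in both groups of a comparison was not tested in it. Neither was shown for 27.5% of rising and 34.6% of falling genes in scNT morulae, and for 12.1% and 8.83% in IVF morulae. Tested directly, scNT morulae were above IVF morulae in 403 of 1910 rising genes (21.1%, against 7.37% of all genes) and below in 11 (0.576%, against 11.3%). They were below in 1126 of 2662 falling genes (42.3%, against 11.3%) and above in 3 (0.113%, against 7.37%), by limma with Benjamini-Hochberg adjustment (n = 3 and 4). Against blastocysts of their own method, scNT morulae were lower in 1188 of 2069 rising genes and higher in 1633 of 2159 falling genes, where 21.6% and 26.1% of all genes were called, but scNT blastocysts took part in the choice of these genes.

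Genes were then sorted into 6 classes by their course from the oocyte, using group means in oocytes, IVF morulae and scNT blastocysts, for the last class also in IVF 8-cell embryos, and none of the 7 libraries. A gene was taken as on at a mean of 50 normalized reads or more and as off below 10. The classes ranged from stored oocyte transcripts to genes that appear only with the blastocyst.

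Stored transcripts of the oocyte that run down by the IVF morula were higher than in the blastocyst for some genes and not shown to differ for many others. The first class held 563 genes that were on in oocytes and at least 4-fold lower in both IVF morulae and scNT blastocysts. Their mean log2 level was 9.15 in oocytes and 6.67 in IVF morulae, and it was 5.75, 5.79 and 4.80 in scNT morula replicates 2 to 4 against 4.06 to 4.47 in IVF blastocysts. Replicate 4 came nearest to the blastocysts without overlapping them. The plots call this class cleared by the IVF morula, but the rule asked only for a 4-fold drop. In IVF morulae 426 of 505 tested genes of the class were still higher than in IVF blastocysts (84.4%, against 30.3% of all genes). Of the 430 tested, 200 (46.5%) were higher in scNT morulae, against 20.6% of all genes, 17 (3.95%) were lower, against 17.7%, and 56 (13%) were within 2-fold, against 35.2%. Of the 430, 29 had 10 reads or more in no IVF blastocyst library. The number higher was 213 of 400 tested without replicate 4 (53.2%, against 18.8% of all genes) and 120 without replicate 2.

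Oocyte transcripts that last into the IVF morula were further from the blastocyst. The 308 genes of this class stayed within 2-fold between oocytes and IVF morulae and were at least 4-fold lower in scNT blastocysts. Their mean log2 levels were 6.84, 6.66 and 6.39 in scNT morulae and 4.84 to 5.45 in IVF blastocysts, while the IVF morulae had 7.40 to 7.61. Of 294 tested, 219 (74.5%) were higher in scNT morulae, against 20.6% of all genes, 2 were lower, against 17.7%, and 3 (1.02%) were within 2-fold, against 35.2%. Of the 294, 18 had 10 reads or more in no IVF blastocyst library.

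The 72 genes of the third class were off in oocytes, on in IVF morulae and at least 4-fold lower in scNT blastocysts. The plots call them morula only, but the rule did not use the 8-cell stage, and IVF 8-cell embryos had a mean log2 level of 5.97 ± 0.99 (SD, n = 4), which overlapped with IVF morulae. They had mean log2 levels of 6.83, 6.46 and 6.88 in scNT morulae, inside the range of the IVF morulae (6.04 to 7.28), and of 4.17 to 5.22 in IVF blastocysts. Of 70 tested, 47 (67.1%) were higher than in IVF blastocysts, against 20.6% of all genes, with a median log2 difference of 2.31. Lower were 5 (7.14%, against 17.7%), and 5 of the 70 had 10 reads or more in no IVF blastocyst library. ENSBTAG00000047612, highest in IVF 8-cell embryos, belonged to this class. Between scNT and IVF morulae 3 of 72 were higher and 9 lower (4.17% and 12.5%), near the 7.37% and 11.3% of all genes.

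Genes switched on by the morula and kept in the blastocyst had mean levels near those of the blastocyst, while their calls lay close to those of all genes. The 207 genes of this class were off in oocytes, on in IVF morulae and within 2-fold of that in scNT blastocysts. In scNT morulae they had mean log2 levels of 7.28, 7.38 and 7.69, against 7.14 to 7.44 in IVF blastocysts, so that replicates 2 and 3 lay inside the blastocyst range and replicate 4 above it. Within 2-fold were 82 (39.6%, against 35.2% of all genes), 35 were higher (16.9%, against 20.6%) and 21 lower (10.1%, against 17.7%), and for 73 neither was shown. With equal library totals 64 of 207 were higher and 10 lower, against 4313 and 1597 of all 13308 genes tested. In the fit over all 12 groups, 2 were within 2-fold.

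Genes that appear with the blastocyst were the furthest from it. The 74 genes of this class were off in oocytes and IVF morulae and on in scNT blastocysts. They had mean log2 levels of 2.57, 2.90 and 2.05 in scNT morulae, 2.05 to 2.63 in IVF morulae, 5.53 to 6.36 in IVF blastocysts and 6.22 to 7.05 in scNT blastocysts. The scNT morulae overlapped with IVF morulae and not with blastocysts. Of 71 tested, 59 (83.1%) were lower than in IVF blastocysts, against 17.7% of all genes, with a median log2 difference of -3.72. Higher were 4 (5.63%, against 20.6%), and 0 were within 2-fold, against 35.2% (limma, Benjamini-Hochberg). Of the 71, 34 had 10 reads or more in no scNT morula library. ENSBTAG00000033096, ENSBTAG00000016973 and ENSBTAG00000039787 met the rule of this class.

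Genes held steady through development were mostly shown to be near blastocyst level. The 2031 genes of the last class were on and within 2-fold among oocytes, IVF 8-cell embryos, IVF morulae and scNT blastocysts. They had mean log2 levels of 8.74, 8.72 and 8.81 in scNT morulae and 8.70 to 8.74 in IVF blastocysts. Within 2-fold were 1419 (69.9%, against 35.2% of all genes), or 1620 (79.8%, against 41.6%) without replicate 4. The steady genes were abundant by their rule, and the share over all genes includes many low ones. Among all tested genes with a mean log2 level of 7 to 9, 48.6% were within 2-fold, and among those at 9 or more 63.9%. Higher were 320 (15.8%, against 20.6%) and lower 249 (12.3%, against 17.7%), a balance that turned with the scaling, to 721 and 95 with equal library totals and 262 and 301 with median-of-ratios scaling.

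**Figure D4:**
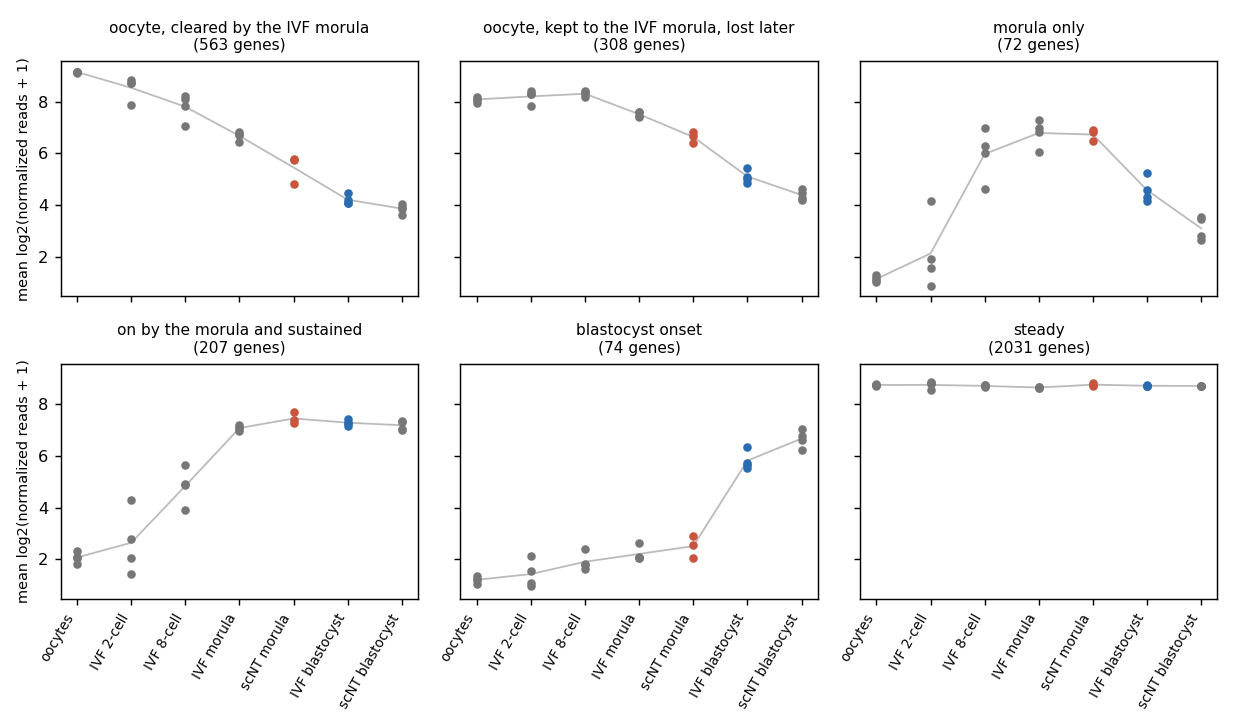
Mean log2(normalized reads + 1) of the 6 gene classes (panels) in each library of oocytes, IVF 2-cell and 8-cell embryos, morulae and blastocysts, with a line through the group means, scNT morulae in red and IVF blastocysts in blue. The scNT morulae lie between the neighbouring groups for oocyte classes, beside IVF morulae for the classes named morula only and blastocyst onset, and beside blastocysts for sustained and steady genes.

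Genes that separate the starting cells were also counted. Oocyte-high genes, at least 32-fold higher in oocytes than in fibroblasts, numbered 938, and 739 were tested. Of these 400 (54.1%) were higher in scNT morulae than in IVF blastocysts, against 20.6% of all genes, and 79 (10.7%) lower, against 17.7%, with a median log2 difference of 1.30. Of the 739, 68 had 10 reads or more in no IVF blastocyst library and so could enter only where they were high. Without scNT morula replicate 2 the number higher was 239. Without replicate 4 it was 371 of 669 tested (55.5%, against 18.8% of all genes). Their mean log2 level was 6.10, 6.04 and 5.13 in scNT morulae and 4.35 to 4.79 in IVF blastocysts, with no overlap. Of the 739 genes, 473 were also falling step genes and 23 were rising ones.

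Genes high in the donor cell type did not stand above the blastocyst in scNT morulae as a group. Of 546 fibroblast-high genes, at least 32-fold higher in fibroblasts than in oocytes, 415 were tested. Of these, 46 (11.1%) were higher in scNT morulae, against 20.6% of all genes, 125 (30.1%) were lower, against 17.7%, and 67 (16.1%) were within 2-fold. The median log2 difference was -0.16, and it was 0.09 with equal library totals, where that of all genes was 0.32. In that setting 86 of 412 were higher and 97 lower, against 4313 and 1597 of all 13308 genes tested. Their mean log2 level was 5.29, 5.39 and 5.03 in scNT morulae, or 5.24 ± 0.19 (SD, n = 3), and 5.45 ± 0.08 (SD, n = 4) in IVF blastocysts, with every scNT morula library below every blastocyst library by a small margin. In IVF morulae it was 4.70 to 5.37, which overlapped with scNT morulae. Tested between scNT and IVF morulae, 39 of 403 were higher (9.68%, against 7.37% of all genes) and 1 was lower (0.248%, against 11.3%), with a median log2 difference of 0.37. Of the 415 genes, 71 were rising step genes.

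**Figure D5:**
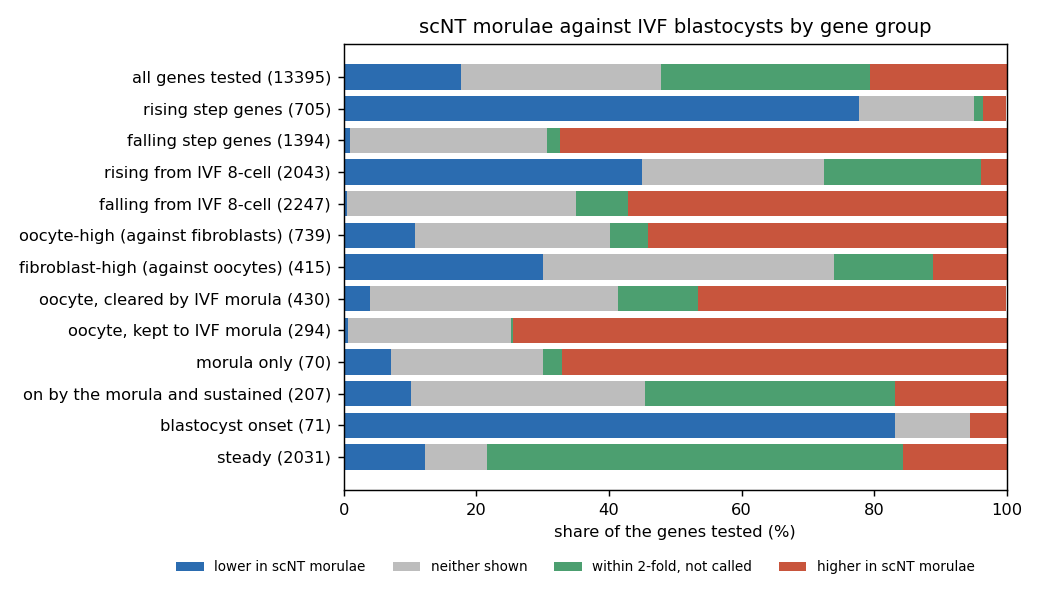
Share of the tested genes of each group (horizontal axis, %) that were lower, higher, within 2-fold and not called, or neither, in scNT morulae against IVF blastocysts, with the number tested in parentheses. Blastocyst-onset genes (83.1% lower) and oocyte transcripts kept to the IVF morula (74.5% higher) are at the extremes, and steady genes hold the largest share within 2-fold of the groups shown.

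The genes called in the comparison differed in their level in groups that took no part in it. The 2370 lower genes had a median over genes of 97.6 normalized reads in oocytes, 139 in IVF morulae, 340 in scNT blastocysts and 389 in cells derived from scNT blastocysts. The 2765 higher genes ran the other way, from 380 in oocytes and 299 in IVF morulae to 107 in scNT blastocysts and 110 in cells derived from them. The 4228 genes within 2-fold and not called had medians over genes of 341 to 387 in all 12 groups. Single genes among them still differed between groups, as 59.2% did between scNT blastocysts and IVF morulae. Over all tested genes the medians of the groups lay between 151 and 177.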

How the data were processed

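The authors deposited 1 table of normalized reads for 20526 Ensembl genes and 47 libraries, a signal in which gene counts were divided by a factor per library and written with 1 decimal. Tools named in the submitters' processing notes are STAR, DESeq2, FastQC and MultiQC, and the build is UMD3.1. For the read counter and the annotation, the sources used here give nothing. Per the labels' protocols, RNA over 200 nt was amplified by PCR in several rounds. Use of molecular identifiers is not given, so counting intervals cover counting error only. In the 7 libraries the deposited signal was whole multiples of a step of 0.941 to 2.04 (100% of low values within 0.1 reads), which gave the recovered reads.

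The main test was limma 3.58.1 in R 4.3.3 (trend and robust options) on log2(value + 1), with a filter of 10 in at least 3 of the 7 libraries and only these libraries in the fit. Fold changes on that scale understate changes of low genes. Genes were named by size of the difference among those called, without overlap and averaging 50 or more in either group, and by level among those within 2-fold and not called. None of the 16 lists of named genes could be used. Gene groups, lists and tests were chosen with earlier results of these data known, and the 6 classes were added after the identifiers were found to have no names. The fit was tested on simulated data. Replicate pairs differed by more than sampling noise, with a chi-square per degree of freedom of 7.32 or more. Alternatives included edgeR 4.0.16 and DESeq2 1.42.0 on recovered reads.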

Additional observations from a re-analysis of the deposited data

Results flagged for a closer look

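In groups of 4 libraries, the gap between the highest or lowest library and the nearest other was set against the range of the group for 83 groups of values that reached 10 or were means of a gene group. In 11 the gap exceeded Dixon's 95% critical value. The usual chance rate of 1 in 20 does not apply, since a group with a low mean could enter through a single high library. In IVF blastocysts the mean log2 level of fibroblast-high genes was 5.57 in replicate 3, above the other libraries. In IVF morulae a single library had 2.63 for the mean log2 level of blastocyst-onset genes. Single libraries also stood apart for ENSBTAG00000033096, with 26.9 normalized reads in an IVF 8-cell and 13.9 in an IVF morula library, and for ENSBTAG00000016973, with 13.5 and 16 in the same groups. ENSBTAG00000039787 had 23.6 in a library of cells derived from IVF blastocysts and ENSBTAG00000047612 had 175.5 in an IVF 2-cell library. ENSBTAG00000043584 had 84554.5 in an IVF morula library, 80090.1 in cells derived from IVF blastocysts and 30658.8 in cells derived from scNT blastocysts. No explanation was tested for these values.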

How the results depend on the processing

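The 4 genes named as higher or lower kept their direction and their call under each setting that left them among the genes tested; both higher genes failed the filter when an scNT morula library was left out, and ENSBTAG00000039787 also failed it at 50. The numbers of lower genes, of blastocyst-onset genes lower and of morula-only genes higher stayed within 1.5 times under every setting run. With a filter at 50, which leaves fewer genes to test, the falling step genes called higher were 554, the oocyte-high genes 214 and the cleared oocyte genes 105. With equal library totals 4313 genes and 86 fibroblast-high genes were higher, 7 falling step genes were within 2-fold, and the mean difference of the 2069 rising genes was -0.72 in place of -0.97. With a pseudocount of 5, 17 rising and 49 falling step genes were within 2-fold. In the fit over all 12 groups these were 4 and 18, the fibroblast-high genes higher were 15 and the sustained genes within 2-fold 2; the cause was not tested. With a bound of 1.5-fold limma placed 0 genes, 0 rising and 0 falling step genes within it; 2315, 3 and 6 had an unadjusted p under 0.05, and DESeq2 placed 523, 0 and 0. With step genes chosen from IVF 8-cell embryos 919 rising genes were lower, and 536 rising and 199 falling genes were within 2-fold. Chosen at 2-fold, 1374 rising genes were lower and 1565 falling genes higher, with 390 and 280 within 2-fold.

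Leaving out each library in turn left 13012 to 13243 genes to test, so the counts below are not over the same genes. It gave 1840 to 2415 lower genes, 1742 to 2674 higher genes and 3464 to 5428 within 2-fold. Rising step genes lower ran from 484 to 559 and within 2-fold from 5 to 24. Falling step genes higher ran from 596 to 890 and within 2-fold from 13 to 29. Oocyte-high genes higher ran from 239 to 371, fibroblast-high genes higher from 36 to 50, cleared oocyte genes higher from 120 to 213, kept oocyte genes higher from 156 to 211, sustained genes within 2-fold from 56 to 99 and steady genes within 2-fold from 1079 to 1620. The mean difference of rising genes ran from -1.06 to -0.91 and that of falling genes from 1.14 to 1.47.

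Deviations of same-numbered libraries correlated at -0.037, -0.0185 and 0.232, and those of differently numbered libraries at -0.212 to 0.165. These few values do not settle whether the replicate numbers pair the groups. With the replicate number as a block limma called 1834 lower and 1963 higher genes and placed 4014 within 2-fold, and no count of a gene group moved by over 1.5 times. The edgeR test called 2531 lower and 2510 higher genes and DESeq2 2627 and 2562, with 4829 within 2-fold; no test of that kind was run in edgeR. By DESeq2 and by the fit over all groups, 59 and 58 blastocyst-onset genes were lower.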
